A study of Macaca mulatta with 10 samples.

Results

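The 10 genes examined here encode chains of the receptors for IL-10, IL-2, IL-15, IL-7, IL-6, IL-27 and TGF-beta, and they were measured by RNA-seq in sorted Tr1 cells of rhesus macaques. They were chosen by name and not by their values: IL10RA, IL10RB, IL2RB, IL2RG, IL7R, IL6R, IL6ST, IL27RA, TGFBR1 and TGFBR2. All 10 were among the 26484 rows of the count table, and all 10 passed the filter of at least 10 counts summed over the libraries. Type 1 regulatory T cells (Tr1) are CD4+ T cells known for secreting IL-10. IL-10 and IL-27 signal through JAK and STAT proteins and are known to promote this cell state, IL-2 and IL-7 maintain T cells through receptors that share the chain IL2RG, and TGF-beta signals through a serine/threonine kinase receptor to SMAD proteins.

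The study sorted CD4+CD49b+LAG3+ cells from blood of monkeys with islet allografts and made 1 library per monkey, 5 in Cohort B and 5 in Cohort C. Cohort C received infusions of apoptotic donor leukocytes (ADL), and Cohort B did not. All 10 monkeys had streptozotocin-induced diabetes, an islet graft from a donor that differed in MHC class I and shared a DRB allele, and transient immunosuppression, which included anti-CD40, rapamycin, soluble TNF receptor and an antibody against the IL-6 receptor, the product of a gene examined here. Per the labels, blood was taken at rejection in Cohort B and at the 365-day end of study in Cohort C, so ADL and the time and state of sampling cannot be told apart. The labels and the study's text do not give the same sampling rule for every monkey, among them 13EP12 and 13EP8 of Cohort B and 15CP1 of Cohort C. The cells were frozen, thawed and rested overnight before sorting.

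The libraries differed widely in depth and in the genes they held. Total counts ran from 6076 to 5895609 per library, and genes with at least 1 count from 465 to 15068. Only 4 libraries had at least 5000 genes, namely Cohort B monkeys 13EP12 and 13EP8 and Cohort C monkeys 13EP5 and 15CP1, and these are called the well covered libraries and the other 6 the thin ones. Cohort B monkey 15CP6 lay just under that limit with 4848 genes. The mitochondrial-like gene MTRNR2L1 took 82.6% of the counts of Cohort C monkey 14HP33. The 12 T cell markers were all found in each well covered library, but only 0 to 7 of them in each of the other 6. Of the markers used for the sort, LAG3 had 10 counts in 13EP12, 16 in 13EP5 and 12 in 15CP1, and 0 in the other 7 libraries. ITGA2, the gene of CD49b, had 25 counts in 13EP12, 2 in 13EP8, 4 in 13EP5 and 37 in 15CP1, and 0 in the thin libraries. Markers of B cells summed to 0 to 418 counts per library, those of platelets to 0 to 885 with the most in 13EP5, and those of red cells to 0 to 188 with none in the well covered libraries.

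The receptors were read as a group in the well covered libraries and as fragments in the rest. All 10 genes had counts in 13EP12, 13EP8, 13EP5 and 15CP1, 9 in 15CP6, 4 in 14HP33 and in 14HP24, 2 in 15CP4, 1 in 14HP26 and 0 in 14HP31. Summed over the 10 genes, the well covered libraries held 1779 and 1466 CPM (counts scaled to the library total) in Cohort B and 1531 and 1695 in Cohort C, so the cohorts overlapped. Beside them the 12 T cell markers summed to 1808 and 1475 CPM in Cohort B and 1556 and 1601 in Cohort C, which gave 0.983 to 1.06 receptor counts per T cell marker count. The other 6 libraries held between 0 and 918 receptor CPM, and that of 15CP4 rested on IL6R for 98.4% of its 61 counts. In bulk RNA, fewer cells of a type and less RNA per cell cannot be told apart.

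**Figure D1:**
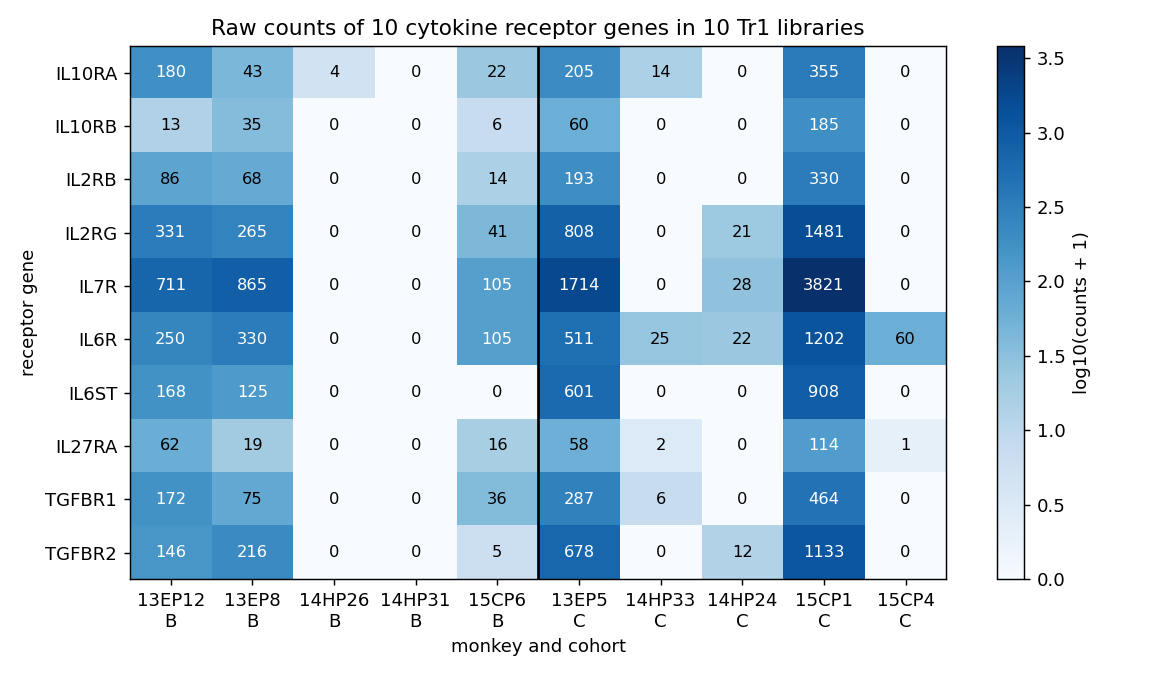
Raw counts of the 10 receptor genes (rows) in the 10 libraries (columns, with monkey and cohort), with shading on a log10(counts + 1) scale and a line between the cohorts. The 4 well covered libraries hold counts for all 10 genes, while 14HP31 holds none and 15CP4 holds 60 counts of IL6R and 1 of IL27RA.

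The IL-10 receptor is built from IL10RA, the ligand-binding chain, and IL10RB, which is shared with other receptors of the IL-10 family. IL10RA had 180, 43, 4, 0 and 22 counts in Cohort B monkeys 13EP12, 13EP8, 14HP26, 14HP31 and 15CP6, and 205 in 13EP5, 14 in 14HP33, 0 in 14HP24, 355 in 15CP1 and 0 in 15CP4 of Cohort C. IL10RB had 13, 35, 0, 0 and 6 counts in Cohort B and 60, 0, 0, 185 and 0 in Cohort C, in the same order of monkeys, which is kept below. IL10RA had the most counts in 15CP1 and its cohorts overlapped, and IL10RB was seen in 5 libraries.

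IL10RA spread more than any other member within the well covered libraries. It stood at 151 CPM (95% Wilson interval 131 to 175) in 13EP12 and at 30.9 (22.9 to 41.6) in 13EP8, a 4.89-fold range between monkeys of the same cohort, with both Cohort C libraries between them at 61.3 and 60.2. IL10RB ran from 10.9 in 13EP12 to 31.4 in 15CP1, a 2.87-fold range. The library with the most IL10RA thus had the least IL10RB, and the ratio of their counts was 13.8 in 13EP12 (exact 95% interval 7.89 to 26.5) but 1.23 in 13EP8 (0.768 to 1.98), 3.42 in 13EP5 (2.55 to 4.64) and 1.92 in 15CP1 (1.60 to 2.30). The interval of 13EP12 did not overlap those of the other 3, though it did overlap that of 15CP6, at 3.67 (1.44 to 11.1). These intervals cover counting error only, since PCR copies are not independent molecules.

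IL2RB and IL2RG form the signalling part of the IL-2 and IL-15 receptors, and IL7R pairs with IL2RG for IL-7. IL2RG had 331, 265, 0, 0 and 41 counts in Cohort B and 808, 0, 21, 1481 and 0 in Cohort C. IL2RB had 86, 68, 0, 0 and 14 counts in Cohort B and 193, 0, 0, 330 and 0 in Cohort C. IL7R had 711, 865, 0, 0 and 105 counts in Cohort B and 1714, 0, 28, 3821 and 0 in Cohort C. All 3 genes had their highest raw counts in the 4 well covered libraries, which also had the highest total counts. IL7R took 33.5% to 42.4% of the receptor counts in those libraries, the largest share in each.

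These were also the steadiest receptors between well covered libraries. IL7R lay between 513 and 648 CPM, a 1.26-fold range, IL2RG between 190 and 278 (1.46-fold) and IL2RB between 48.8 and 72.2 (1.48-fold). The IL2RB to IL2RG ratio was 0.260 in 13EP12, 0.257 in 13EP8, 0.239 in 13EP5 and 0.223 in 15CP1. In 15CP6 it was 0.341 (exact 95% interval 0.172 to 0.639), and the intervals of all 5 libraries overlapped. The IL7R to IL2RG ratio was 2.15 in 13EP12, 3.26 in 13EP8 (exact 95% interval 2.84 to 3.76), 2.12 in 13EP5 and 2.58 in 15CP1, and the interval of 13EP8 lay above those of the other 3. It overlapped that of 15CP6, at 2.56 (1.77 to 3.77), and lay above that of 14HP24, at 1.33 (0.730 to 2.47). The 8 markers of CD8+ T cells and NK cells, which also use IL2RB, summed to between 37.7 and 259 CPM in the well covered libraries, highest in 13EP12 and lowest in 13EP5, and their part in the IL2RB values was not tested.

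IL6R binds IL-6, and IL6ST is the signal-transducing chain that the IL-6 family shares. IL6R had 250, 330, 0, 0 and 105 counts in Cohort B and 511, 25, 22, 1202 and 60 in Cohort C. IL6R was therefore found in 5 of 5 Cohort C libraries and 3 of 5 Cohort B libraries, more libraries than any other member. IL6ST had 168, 125, 0, 0 and 0 counts in Cohort B and 601, 0, 0, 908 and 0 in Cohort C, so it was found only in the 4 well covered libraries.

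Observed counts in the thin libraries were set against those expected from the well covered ones. Scaled by the counts that remained without the MTRNR2L genes, the mean share of the well covered libraries gave 7.83 expected IL6R counts in 15CP4, where 60 were seen, and 72.0 in 15CP6, where 105 were seen. Scaled to all counts, IL6R in 15CP6 stood at 231 CPM, within the range of the well covered libraries. It gave 26.3 in 14HP33 and 21.7 in 14HP24, where 25 and 22 were seen, and 16.9 in 14HP26, where 0 were seen. For IL6ST the same share gave 50.5 counts in 15CP6, and the lowest share of any well covered library gave 32.3, yet 0 were seen. In 15CP4, IL7R had 0 counts where 23.2 were expected.

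Between well covered libraries, IL6R ran from 153 to 237 CPM (1.55-fold) and IL6ST from 89.8 to 180 (2.0-fold). The IL6R to IL6ST ratio was 1.49 in 13EP12 (exact 95% interval 1.22 to 1.82), 2.64 in 13EP8 (2.14 to 3.27), 0.850 in 13EP5 (0.754 to 0.958) and 1.32 in 15CP1 (1.21 to 1.44). The interval of 13EP5 lay below those of the other 3. Monocytes also carry IL6R. The 10 monocyte markers summed to 1295 CPM in 13EP12, 1207 in 13EP8, 206 in 13EP5 and 1186 in 15CP1, with 6 to 10 of the 10 detected. The marker VCAN held 1104 of the 1543 marker counts in 13EP12 and 1084 of 1680 in 13EP8. In 13EP5 it held 184 of 690, and in 15CP1 it held 4416 of 6990. CD14, which defines monocytes, had 45, 28, 0, 0 and 0 counts in Cohort B and 36, 0, 0, 295 and 0 in Cohort C. The whole list ran from 0 to 1295 CPM in Cohort B and from 0 to 1186 in Cohort C. In 15CP4, the library with 60 IL6R counts, all 10 monocyte markers were at 0. That thin library held 66485 counts in all and only 1 of the 12 T cell markers. The part of monocyte RNA in the IL6R values was not tested in any library.

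IL27RA joins IL6ST to form the IL-27 receptor. It had 62, 19, 0, 0 and 16 counts in Cohort B and 58, 2, 0, 114 and 1 in Cohort C. IL27RA ranged from 13.6 to 52.1 CPM in the well covered libraries, a 3.81-fold range with both ends in Cohort B. Its ratio to IL6ST was 0.369 in 13EP12 (exact 95% interval 0.271 to 0.497), above 0.152 in 13EP8 (0.0885 to 0.247), 0.0965 in 13EP5 (0.0724 to 0.126) and 0.126 in 15CP1 (0.102 to 0.153). Both chains had over 3 counts in 4 libraries.

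TGFBR2 binds TGF-beta and recruits TGFBR1, the kinase that phosphorylates SMAD proteins. TGFBR1 had 172, 75, 0, 0 and 36 counts in Cohort B and 287, 6, 0, 464 and 0 in Cohort C. TGFBR2 had 146, 216, 0, 0 and 5 counts in Cohort B and 678, 0, 12, 1133 and 0 in Cohort C. TGFBR1 was highest in 13EP12, at 144 CPM against 53.9 in 13EP8 (2.68-fold), while TGFBR2 ran from 123 in 13EP12 to 203 in 13EP5 (1.66-fold). The TGFBR1 to TGFBR2 ratio was 0.347 in 13EP8, 0.423 in 13EP5 and 0.410 in 15CP1, with overlapping exact intervals, but 1.18 in 13EP12 (0.939 to 1.48) and 7.20 in 15CP6 (2.82 to 23.5). Cohort B thus held both the highest and the lowest of these ratios.

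**Figure D2:**
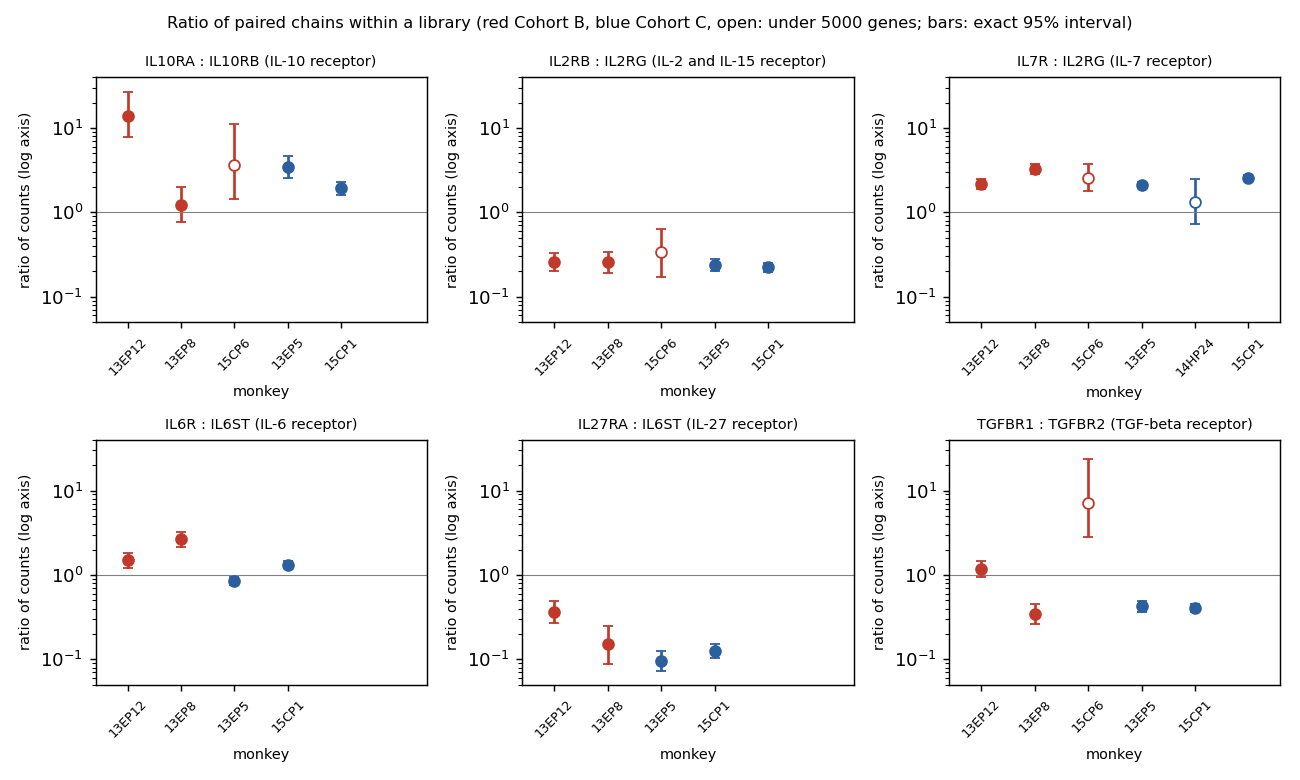
Ratio of the counts of paired receptor chains within each library where both chains had over 3 counts, on a log axis, with exact 95% intervals for counting error (red for Cohort B, blue for Cohort C, open circles for libraries under 5000 genes). The IL2RB to IL2RG ratio stays between 0.223 and 0.341, whereas the IL10RA to IL10RB ratio runs from 1.23 to 13.8.

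Both chains of a receptor had over 3 counts in 6 of 10 libraries for IL-7, in 5 for IL-10, for IL-2 and IL-15 and for TGF-beta, and in 4 for IL-6 and for IL-27. Which of several genes stood highest was read only per length, by the deposited FPKM values within a library. IL2RG was the highest member in all 4 well covered libraries, at 194 FPKM in 13EP12, 111 in 13EP8, 1385 in 13EP5 and 203 in 15CP1. IL7R came next in each, at 128, 98.7, 758 and 131 FPKM, so IL7R led by counts and IL2RG led per length. For this ranking FPKM values were not set side by side between libraries. The reason is that 1 CPM was worth a median of 1.89 FPKM over genes in 13EP5 and 0.249 to 0.303 in the other 3. The limma comparison of the cohorts by FPKM, given further below, does set libraries against each other and carries this difference. In 13EP8, IL10RA and IL27RA were listed at 0 FPKM while they had 43 and 19 counts.

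The comparison of Cohort C with Cohort B asked whether ADL infusion went with another level of these receptors in Tr1 cells. No receptor passed the test of a difference. By edgeR's quasi-likelihood test on all 10 libraries, 0 of 10 members passed the unadjusted rule (p under 0.01 and 1.5-fold or more), which 6.43% of the 14168 genes tested met, and 0 passed an unadjusted p of 0.05, which 20.6% of all genes did. No member passed a Benjamini-Hochberg adjusted p of 0.05, as 0% of all genes did. The same 3 counts of members were 0 by edgeR's exact test, DESeq2 and limma-voom, where fewer of the 14168 genes met the unadjusted rules. The unadjusted rule was met by 61, 69 and 67 genes in that order of methods. An unadjusted p of 0.05 was passed by 819, 355 and 365 genes, and the adjusted p of 0.05 by 0, 2 and 0.

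The direction of the group was not settled either. With all libraries, 6 members were higher and 4 lower in Cohort C, beside 53.5% of all genes tested that were higher. The median log2 fold change of the members, 0.16, was that of all genes tested, 0.16. The count of higher members was 10 without Cohort B monkey 13EP12, beside 63.1% of all genes. It was 9 without Cohort C monkey 14HP24 or 15CP4, beside 56.3% and 59.1% of all genes. Without Cohort C monkey 13EP5 or 15CP1 it was 3, beside 40.4% and 38.2%. The share of all genes thus moved in the same direction as the members. In the 4 well covered libraries, 4 members were higher and 6 lower, beside 59.5% of all genes that were higher. The median log2 fold change of the members was -0.12 there, beside 0.32 for all genes. There 0 of 10 members were called, where 0.881% of 13274 genes met the unadjusted rule and 0.00753% the adjusted one.

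The width of the intervals shows what the data could have missed. Over 10 libraries, IL6R had the largest log2 fold change, 0.83 ± 1.93 (SE, n = 5 per cohort, edgeR adjusted p = 0.9998), with a 95% interval from -2.96 to 4.62. TGFBR2 came next at 0.74 ± 1.999 (-3.18 to 4.66), followed by IL6ST at 0.61 ± 2.02 (-3.35 to 4.56). IL27RA was lowest at -0.53 ± 2.08 (-4.60 to 3.55). IL7R stood at -0.03 ± 1.88 (-3.71 to 3.66), so even for the gene with the most counts a change of several-fold in either direction lay within the interval. The other 5 members lay between -0.30 for IL2RB and 0.31 for IL10RA.

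Among the well covered libraries the intervals were narrower, and narrowest for IL7R and IL2RG. IL7R had a log2 fold change of -0.11 ± 0.41 (SE, n = 2 per cohort), with a 95% interval from -1.004 to 0.78 (edgeR adjusted p = 0.971). IL2RG had 0.04 ± 0.48 (-1.02 to 1.09), and IL2RB had -0.13 ± 0.82 (-1.91 to 1.66). IL6ST and TGFBR2 were the highest, at 0.49 ± 0.57 (-0.75 to 1.74) and 0.46 ± 0.53 (-0.70 to 1.62), both with an edgeR adjusted p of 0.841. IL6R turned to -0.37 ± 0.50 (-1.47 to 0.74) and IL10RA to -0.60 ± 0.85 (-2.46 to 1.26), opposite in sign to their values over 10 libraries. IL27RA had -0.86 ± 1.34, TGFBR1 -0.30 ± 0.72 and IL10RB 0.40 ± 1.43.

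**Figure D3:**
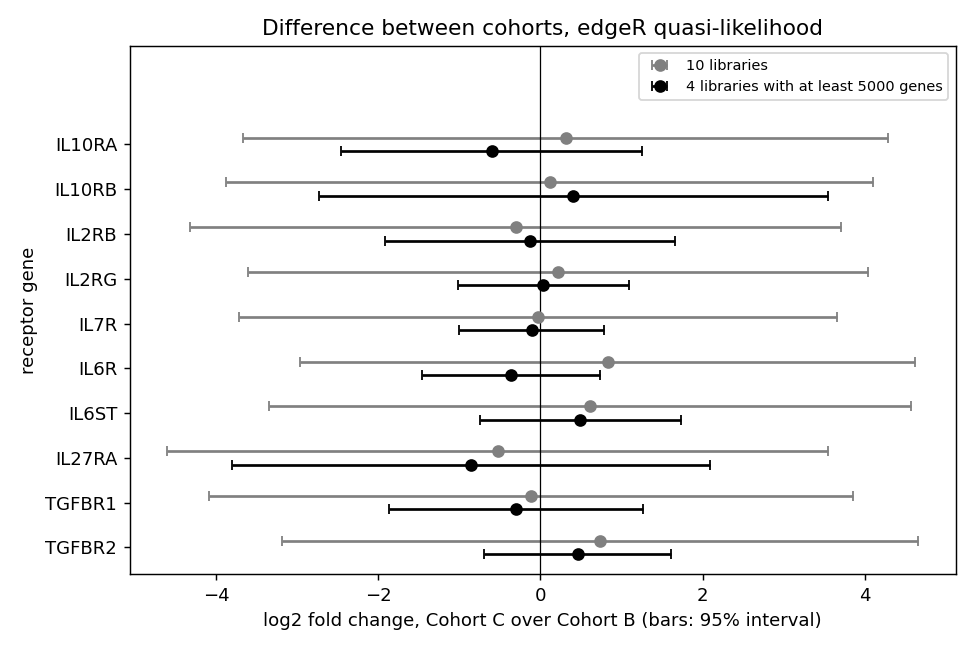
Log2 fold change of each receptor gene, Cohort C over Cohort B, from edgeR's quasi-likelihood fit on 10 libraries (grey) and on the 4 well covered libraries (black), with 95% intervals. All 20 intervals include 0, and IL7R has the narrowest, from -1.004 to 0.78 in the well covered libraries.

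Monkey by monkey, the spread within a cohort was wide on this scale for all members but IL6R in Cohort C. On the log2(CPM + 1) scale, with CPM here also scaled by TMM factors, IL7R was 5.30 ± 4.87 in Cohort B and 5.21 ± 4.83 in Cohort C (SD, n = 5 monkeys each; exact permutation p = 0.905). IL6R was 4.72 ± 4.31 in Cohort B and 7.86 ± 0.69 in Cohort C, a difference of 3.14 (two-sided exact permutation p = 0.230, where the smallest p possible was 0.00794). Scaled to the library total alone, IL6R in Cohort C was not as even and ran from 25.8 CPM in 14HP33 to 902 in 15CP4. The 2 Cohort B libraries without IL6R, 14HP26 and 14HP31, held 113884 and 6076 counts, and in the well covered libraries alone the difference was -0.23. The other 9 members differed by between -0.98 for IL2RB and 0.76 for TGFBR2, with exact permutation p from 0.683 to 0.952.

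**Figure D4:**
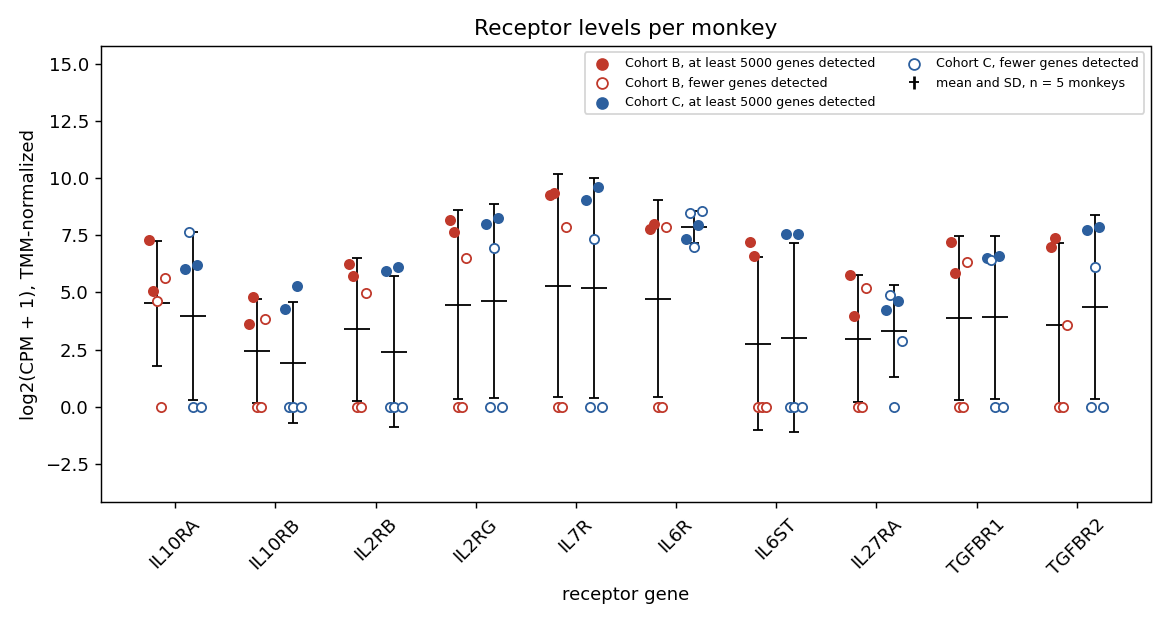
Level of each receptor gene per monkey as log2(CPM + 1) (filled for libraries with at least 5000 genes, open for the rest, red for Cohort B and blue for Cohort C), with the mean and SD of 5 monkeys per cohort in black. The filled points of IL10RA spread the most, with both of Cohort C between the 2 of Cohort B. The cohort means of filled points differ most for IL6ST, by 0.67. Open points at 0 stand in every gene, and IL6R is the gene with no Cohort C library at 0.

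Several ligands of these receptors had few or no counts in the sorted cells. Of 10 ligand genes, 6 passed the count filter, 4 of them higher and 2 lower in Cohort C, and 0 were called. TGFB1, the most abundant with 8528 counts, had a log2 fold change of 0.17 ± 1.87 (SE). IL10, the cytokine Tr1 cells are known for, had 11 counts in 13EP5, 25 in 15CP1 and 0 in the other 8 libraries. It missed both rules (edgeR adjusted p = 0.151). Those libraries were also the deepest, with 3341503 and 5895609 counts, beside 1191070 in 13EP12 and 1392157 in 13EP8. In the well covered libraries alone, its log2 fold change was 6.48 ± 4.12 (SE, edgeR adjusted p = 0.800). IL7 had 4 counts in 13EP12, 11 in 13EP8 and 98 in 15CP1, TGFB3 had 36 in 13EP8 and 87 in 15CP1, and IL2 had 0 in every library.

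Of 31 other chains of the same receptor families, 23 were tested, with 11 higher and 12 lower and 1 called lower by the unadjusted rule, which 5.36% of all genes met in that direction. That gene was ENG, a TGF-beta co-receptor, whose 39 counts all came from Cohort B monkey 15CP6 (edgeR adjusted p = 0.141). The most abundant were TGFBR3, another TGF-beta co-receptor, with 1496 counts and a log2 fold change of 0.68 ± 2.01 (SE), and IFNGR1, a chain of the interferon-gamma receptor, with 1129 counts and 0.18 ± 2.03. BMPR2 and BMPR1B, receptors for bone morphogenetic proteins, had 693 and 631 counts and log2 fold changes of -0.42 and -0.39.

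Downstream of the receptors, the 12 transducers, mostly JAK, STAT and SMAD genes, were all tested, with 4 higher, 8 lower and 0 called. JAK1, the kinase on IL10RA, IL2RB, IL7R and IL6ST, had 11472 counts and a log2 fold change of -0.42 ± 1.84 (SE). JAK2 stood at 0.39 ± 1.97 and STAT3, the main mediator of IL-10 and IL-6, at -0.10 ± 1.97. The 12 feedback and target genes of these pathways likewise gave 4 higher, 8 lower and 0 called. Among them SOCS3, an inhibitor that STAT3 induces, stood at -0.63 ± 1.98, BCL2, a survival gene, at -0.14 ± 2.01, the kinase gene PIM1 at 0.26 ± 1.99 and SKI, a SMAD inhibitor, at -0.76 ± 1.997.

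The receptors followed each other across libraries to different degrees. Over the 10 libraries, the Pearson correlation of log2(CPM + 1) was highest between IL2RG and IL7R, at 0.998, followed by IL10RB and IL2RB at 0.981, and lowest between IL10RA and IL6R, at 0.351. These values are descriptions, since the thin libraries share many zeros: 40 of the 60 receptor values in the 6 thin libraries were 0. Among 4972 genes with at least 100 counts and counts in at least 5 libraries, the profile most like IL7R was that of MDN1 (r = 0.999), followed by MYADM and LEF1, a transcription factor of naive T cells (both r = 0.998). CTLA4, an inhibitory receptor, was most like IL10RB (r = 0.999), MPRIP most like IL2RB (r = 0.999), PSIP1 most like IL10RA (r = 0.981), ACIN1 most like IL6R (r = 0.971) and CD84 most like IL27RA (r = 0.942).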

How the data were processed

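RNA of sorted CD4+CD49b+LAG3+ cells was sequenced from a stranded low-input kit, with 1 library per monkey and 5 monkeys per cohort. The authors aligned macaque reads against the human build hg38 (HISAT2 2.0.2) and deposited raw counts per gene for 26484 rows, so counts of a gene also depend on how alike the macaque and human sequences are. How reads were counted by strand, duplicate or multiple match is not given in the sources used here. A table of FPKM values made by the authors with Cuffdiff 2.2.1 has 26381 rows. Cohorts and monkeys were taken from the labels. All 10 symbols matched a macaque gene in RefSeq (T2T-MMU8v2.0), whose coordinates were not used because the build differs.

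The difference of Cohort C from Cohort B was fitted to the counts with edgeR 4.0.16 (R 4.3.3, TMM, quasi-likelihood test, whole table, genes with at least 10 counts in all), with calls at an unadjusted p under 0.01 with 1.5-fold, as in the study's methods, and at an adjusted p under 0.05 (Benjamini-Hochberg). The SE is the log2 fold change divided by the root of its F statistic. Single genes were tested by exact permutation over all 252 assignments of the libraries (scipy 1.17.1), and log2(FPKM + 1) by limma 3.58.1 (mean FPKM of 1 or more). The code was tested on simulated data with a smaller spread than here, where edgeR's common dispersion was 4.74. That test does not measure power at this spread. Total counts of 6076 to 5895609 per library limit the precision. Wilson and exact intervals cover counting error only, and those of fold changes also hold the spread between monkeys.

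The alternatives were DESeq2 1.42.0, edgeR's exact test, limma-voom, other normalizations, filters and pseudocounts, a replicate block, an index suffix of some labels as a covariate, subsets of libraries and leaving out each library. The members and lists were chosen with earlier results of these data known. Genes other than the members are named where they were among the 4 with the most counts of their list, passed the unadjusted rule, were cell type markers or were among the 3 genes most like a member. A few ligands were named after their values were seen, and 1 gene that the rule names is not reported here.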

Additional observations from a re-analysis of the deposited data

How the results depend on the processing

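No alternative gave a member past any threshold, and 6 of the 10 libraries were thin. The genes called by the unadjusted rule were 911, and 69 by DESeq2, 61 by edgeR's exact test, 67 by limma-voom, 1525 with RLE normalization, 10 with filterByExpr (which tested 8 members), 98 with the index suffix, 117 in libraries with at least 5000 genes and 111 in those with at least 4000 genes (chosen after seeing the data). At the adjusted threshold 0 became 2, 1 and 5 by DESeq2 and in these subsets. Members higher in Cohort C, 6 of 10, were 3 with filterByExpr and 2 by limma-voom. Of all genes tested, 53.5% were higher in the main fit, 43.3% with filterByExpr and 52.5% by limma-voom. With the replicate number as a block, the calls were 0 and the members higher were 3, beside 52.8% of all genes. IL10RA was then -1.07, IL10RB -0.93 and IL2RG -0.18. The numbers do not pair the monkeys, however (correlations of same-numbered libraries from -0.43 to 0.38, and 0 of 5 closest to their own number). Leaving out 1 library gave 76 to 698 calls, 0 to 1 adjusted calls and 3 to 10 members higher.

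The cause of these reversals of small differences was not tested. The log2 fold change reversed for IL10RA (DESeq2 -0.21, RLE -0.19, suffix -0.70, at least 5000 genes -0.60, at least 4000 genes -0.36, library size -1.03, limma-voom -0.82), IL10RB (DESeq2 -0.26, suffix -0.32, library size -0.16, limma-voom -0.71), IL2RG (filterByExpr -0.0105, limma-voom -0.34), IL6ST (limma-voom -0.19) and IL6R (at least 5000 genes -0.37, at least 4000 genes -0.37), and with at least 4000 genes for IL2RB (0.13) and IL7R (0.23). The FPKM difference of TGFBR1 was -0.0293 with a pseudocount of 0.1. The CPM difference reversed with at least 5000 genes for IL10RB (0.59), IL2RB (0.0422), IL7R (0.0270), IL6R (-0.23) and IL27RA (-0.43), with at least 4000 genes for IL10RA (0.12), IL10RB (0.72), IL2RB (0.37), IL7R (0.51), IL6R (-0.23) and IL27RA (-0.53), by library size for IL27RA (-0.12) and TGFBR1 (-0.74), and with a pseudocount of 10 for IL27RA (-0.0534).

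Leaving out 1 library, the log2 fold change ran from -0.62 to 1.26 for IL10RA, -1.05 to 0.76 for IL10RB, -1.04 to 0.19 for IL2RB, -0.33 to 0.80 for IL2RG, -0.80 to 0.41 for IL7R, 0.50 to 0.999 for IL6R, -0.25 to 1.43 for IL6ST, -0.86 to 0.0579 for IL27RA, -0.63 to 0.48 for TGFBR1 and 0.17 to 1.45 for TGFBR2. The FPKM difference ran from -0.28 to 1.20 for IL10RA, -0.52 to 1.14 for IL2RB, -1.57 to 0.82 for IL7R, -0.38 to 1.32 for IL6ST, -0.0856 to 1.36 for IL27RA, -1.07 to 0.70 for TGFBR1 and -0.27 to 1.79 for TGFBR2. The CPM difference ran from -1.68 to 0.45 for IL10RA, -1.37 to 0.0570 for IL10RB, -0.95 to 1.32 for IL2RG, -1.42 to 1.21 for IL7R, -0.87 to 1.38 for IL6ST, -0.41 to 1.17 for IL27RA, -0.95 to 0.997 for TGFBR1 and -0.14 to 1.84 for TGFBR2, and from 1.96 to 3.95 for IL6R.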

Other observations

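The 2 deposited tables differed in what they show of the receptors and of all genes. By limma on log2(FPKM + 1), 9 of 10 members were higher in Cohort C, against 6 by counts. Of all genes tested, 75.1% were higher by FPKM and 53.5% by counts. No member passed an adjusted p of 0.05 with over 1.4-fold, as 0% of the 10307 genes tested did. An unadjusted p of 0.05 was passed by 0 members and by 29 of those genes. The differences of the members ran from -0.07 for IL7R to 2.54 ± 1.55 (SE) for IL6R (limma adjusted p = 0.992). Cohort C monkey 13EP5 had the library in which a count was worth the most FPKM. Without it, 3 of 10 members were higher, beside 30.5% of all genes tested. Of the genes with at least 10 counts in a library, between 7.05% in 15CP1 and 38.4% in 14HP33 were listed at 0 FPKM. In 15CP6, 4 members with counts were listed at 0 FPKM.

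Over all 10 members, the mean share of the well covered libraries gave 136 expected counts in Cohort B monkey 14HP26, where 4 were seen, and 211 in Cohort C monkey 14HP33, where 47 were seen. It gave 579 in Cohort B monkey 15CP6, where 350 were seen, and 175 in Cohort C monkey 14HP24, where 83 were seen. In Cohort C monkey 15CP4 it gave 63.0, where 61 were seen. Of those, 60 were IL6R, where 7.83 were expected, and 1 was IL27RA, so the other members fell short there too. In 21 of the 40 receptor values at 0, over 3 counts were expected even at the lowest share of a well covered library.

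Within the feedback genes, SMAD7, an inhibitor of TGF-beta signalling, had 15, 52, 0, 0 and 101 counts in Cohort B and 813, 0, 1, 208 and 0 in Cohort C. In the well covered libraries its log2 fold change was 2.37 ± 0.99 (edgeR adjusted p = 0.800), and over 10 libraries it was 0.12 ± 2.02. The libraries of 13EP5 and 15CP1 held 3341503 and 5895609 counts in all, and those of 13EP8 and 15CP6 held 1392157 and 455470. Relative to these totals alone, SMAD7 in 15CP1 was not above 13EP8. The fit also used TMM factors, 0.820 in 15CP1 and 0.942 in 13EP8, which raise 15CP1 more. In either case the value in the well covered libraries rested mainly on 13EP5, with 13EP12 low at 15 of 1191070 counts. SMAD7 was named after its values were seen.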
